A study of Mus musculus with 4 samples.

Results

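The genes described here encode the Wnt ligands, their Frizzled receptors and the co-receptors LRP5, LRP6, ROR1, ROR2 and RYK. Members were chosen by gene symbol alone: every Wnt and Fzd gene and Lrp5, Lrp6, Ror1, Ror2 and Ryk, as far as a probe set of the array was annotated to that gene and to no other. This gave 69 probe sets for 34 genes, of 45037 probe sets and 18193 genes in all. The members were 19 Wnt genes with 32 probe sets, 10 Frizzled genes with 26 probe sets and the 5 other receptors with 11 probe sets. A gene is described by its brightest probe set on average unless another is named.

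Wnt proteins are lipid-modified secreted signals that act on neighbouring cells. When a Wnt binds a Frizzled together with LRP5 or LRP6, β-catenin escapes destruction and enters the nucleus, where it works with TCF/LEF factors. Some Wnts act through Frizzled with ROR1, ROR2 or RYK on cell shape and polarity without β-catenin. In bone marrow stroma, β-catenin signalling is known to hold back fat cell formation and to favour bone formation, and Wnt proteins made by stroma are among the signals offered to blood progenitors.

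The 4 arrays measured total RNA of mouse stromal lines, 2 arrays per line, which the labels call biological replicates. OP9M2, a clonal line subcloned from OP9 stroma, is labelled a mesenchymal stem cell line that supports human blood progenitors, and BFC012 is labelled a fibroblast line from fetal liver that does not. Cells of both lines had received 2000 rad and were plated at 25000 cells per cm2, 48 h before harvest. The medium of OP9M2 held 20% serum and that of BFC012 10%, so the serum concentration and the line cannot be told apart. The study asked what kind of cell OP9M2 is and by what means it supports blood progenitors. OP9M2 and BFC012 are each 1 line, so a difference between them is a difference between these lines and not between classes of stroma.

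The natural log of the deposited value was read as the RMA level on the log2 scale, where 1 unit is a 2-fold difference. The base was not stated. Were the deposited values linear, every difference would be 1.44 times as large with the same adjusted p (Wnt4 -4.03 in place of -2.79, Fzd6 -8.88 in place of -6.16), and every fold would be larger too. Differences are OP9M2 minus BFC012 with the standard error of limma's fit over all probe sets and a p adjusted over all of them by Benjamini-Hochberg. Called genes had an adjusted p below 0.05 and differed by 1 log2 unit or more. The background level, 6.09, is the 95th percentile of 81 probe sets of genes for olfactory, vomeronasal or trace amine receptors, which stroma is not known to use. Where both arrays of a line lay at or below it, the fold is a lower bound against that level and is written as at least that size. Levels of different probe sets cannot be set against each other.

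The labelled cell types were checked on marker lists. Of 13 measured mesenchymal markers, 10 were above background on all 4 arrays, while Thy1 (4.08 to 4.77) and Lum (4.39 to 5.85) were below it on all 4, and Col1a2 was near background in BFC012 (6.18 and 6.07) against 14.25 and 14.14 in OP9M2. Of 5 adipocyte markers 3 were called higher in OP9M2, and of 7 mesothelial markers 5 were called lower in OP9M2, as were 2 of 6 epithelial markers, Cdh1 and Krt14. No endothelial, blood cell or hepatocyte marker was called, but a call is a difference between the lines and does not show that a cell type was absent. Some of these markers were modestly above background on all 4 arrays: Kdr (6.52 to 6.88), Cd3e (6.49 to 6.80), Ttr (7.16 to 7.49) and Hnf4a (6.39 to 6.52). The OP9M2 arrays were less alike than the BFC012 arrays (Pearson r across probe sets 0.980 and 0.994), and the 12 poly-A control probe sets averaged 4.16 on OP9M2 replicate 2 against 5.88 to 7.26 on the other 3 arrays. In RNA of a whole culture, fewer cells that express a gene and less RNA of it per cell cannot be told apart.

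Of the 34 genes, 7 were called lower in OP9M2: the ligands Wnt4, Wnt9a and Wnt10a, the Frizzleds Fzd3 and Fzd6 and the kinase-like receptors Ror1 and Ryk. Across all genes 3.56% were called lower. No member was called higher, against 2.36% of all genes. At an unadjusted p under 0.05 limma had 11 members lower and 1 higher, the latter being Wnt2 at levels below background. Over all genes these shares were 12.8% lower and 10.5% higher. The difference was below 0 for 27 members and above 0 for 7, with a median of -0.27 log2 units, while the median over all genes was 0.032. Over all genes 8237 of 18193 lay below 0, and with the mean of all probe sets 24 members did. By their brightest probe sets, the Frizzled genes had a median of -0.59 and all 10 lay below 0. The co-receptors had a median of -1.11 and all 5 lay below 0. Above 0 were other probe sets of Fzd2 (0.016), Fzd6 (0.07), Fzd7 (0.16), Fzd8 (0.58) and Ror2 (0.20). All remaining probe sets of these receptors lay below 0. The 19 Wnt genes had a median of -0.057, with 12 below 0 and 7 above.

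**Figure D1:**
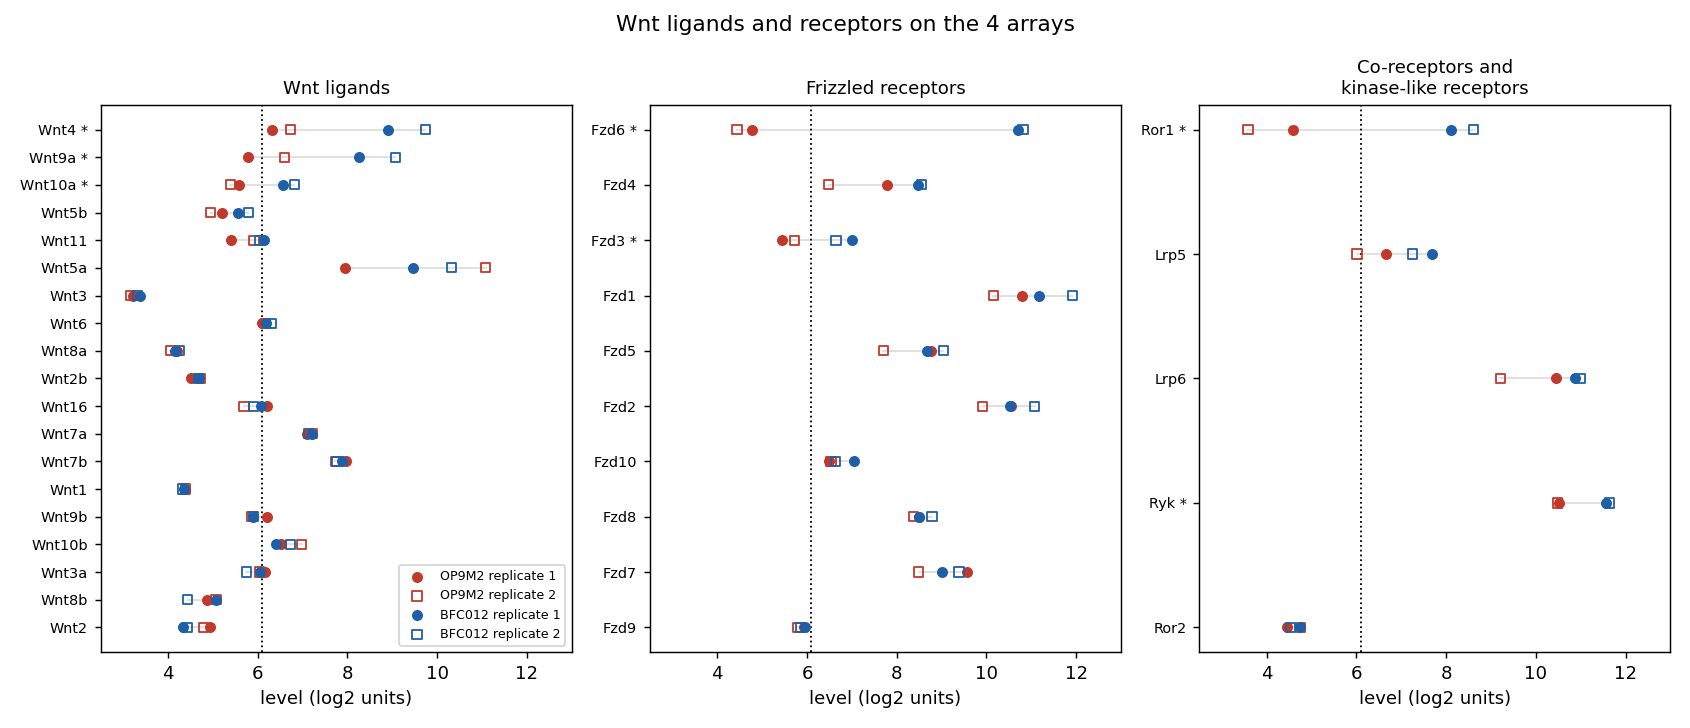
Level of each member gene in log2 units (horizontal axis) on the 4 arrays, in panels for Wnt ligands, Frizzleds and the other receptors, with 1 symbol per array, the background level of 6.09 as a dotted line and asterisks on the 7 genes called lower in OP9M2. Fzd6 shows the widest gap between the lines, with 4.77 and 4.44 in OP9M2 against 10.71 and 10.81 in BFC012.

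Both BFC012 arrays lay above both OP9M2 arrays in 16 members, and both OP9M2 arrays lay above in 2, Wnt1 and Wnt2. Over all genes the shares were 24.8% and 28.4%. Of the 34 genes, 21 were above background on at least 2 arrays and 15 on all 4. There were 9 genes above background on no array: Wnt1, Wnt2, Wnt2b, Wnt3, Wnt5b, Wnt8a, Wnt8b, Fzd9 and Ror2, with levels between 3.17 and 5.96. Another 4, Wnt3a, Wnt9b, Wnt11 and Wnt16, were above it on 1 array, with levels between 5.41 and 6.20. A level below background does not show that a transcript was absent.

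Counted by probe set, 9 of 69 were called lower, against 2.66% of all probe sets, and none higher, against 1.8%. At an unadjusted p under 0.05 there were 20 lower and 2 higher member probe sets, against 10.5% and 8.88% of all probe sets. Without either BFC012 array limma called no probe set at all, members included. The spread then came from the OP9M2 pair alone, which was the less alike. Without BFC012 replicate 1 and replicate 2 in turn, the differences were -6.21 and -6.10 in Fzd6 and -4.53 and -4.02 in Ror1. They were -3.21 and -2.37 in Wnt4, -2.88 and -2.07 in Wnt9a and -1.33 and -1.07 in Wnt10a. Fzd3 had -1.06 and -1.41, and Ryk had -1.15 and -1.05. These 7 genes were chosen on the same arrays, so their common sign here is no separate support. With the replicate number as a block, 3 member genes were called (Fzd6, Wnt4 and Wnt9a).

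Promoter sequence is shown for the called genes that the RefSeq promoter table for GRCm38.p6 held: Ror1, Wnt4, Ryk and Wnt9a. They are shown because these 4 genes were called lower in the same line. Each window is the 250 bases before the annotated start, 5′ to 3′ on the gene's strand, with capitals at matches on either strand to TATAAA, to the TCF/LEF core CTTTGAT or CTTTGAA, to the GC box GGGCGG or to CCAAT.
Ror1, chr4:100095541-100095790, + strand: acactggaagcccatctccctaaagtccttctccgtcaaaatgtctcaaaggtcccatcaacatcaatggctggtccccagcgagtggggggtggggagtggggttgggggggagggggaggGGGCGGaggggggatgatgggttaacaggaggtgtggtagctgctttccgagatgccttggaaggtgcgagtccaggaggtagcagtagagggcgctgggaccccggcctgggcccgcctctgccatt
Wnt4, chr4:137277385-137277634, + strand: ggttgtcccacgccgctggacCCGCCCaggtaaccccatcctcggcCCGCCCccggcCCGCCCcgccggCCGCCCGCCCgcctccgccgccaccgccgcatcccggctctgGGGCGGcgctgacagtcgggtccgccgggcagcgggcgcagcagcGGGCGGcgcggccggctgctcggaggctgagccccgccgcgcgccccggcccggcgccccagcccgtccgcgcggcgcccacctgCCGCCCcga
Ryk, chr9:102834670-102834919, + strand: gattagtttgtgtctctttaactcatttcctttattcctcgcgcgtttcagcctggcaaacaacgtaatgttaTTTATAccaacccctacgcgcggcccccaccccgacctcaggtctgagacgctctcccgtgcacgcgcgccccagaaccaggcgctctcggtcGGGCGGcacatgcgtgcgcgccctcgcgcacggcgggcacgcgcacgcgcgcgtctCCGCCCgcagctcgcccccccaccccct
Wnt9a, chr11:59306680-59306929, + strand: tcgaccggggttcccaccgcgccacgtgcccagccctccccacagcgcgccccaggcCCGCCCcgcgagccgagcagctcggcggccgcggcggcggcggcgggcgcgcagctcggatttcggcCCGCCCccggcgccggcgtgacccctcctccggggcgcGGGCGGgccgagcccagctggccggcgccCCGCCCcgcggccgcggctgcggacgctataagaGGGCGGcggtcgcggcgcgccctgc

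The windows of Wnt4 and Wnt9a were very rich in G and C (85.2% and 84.4%), with 44 and 48 CpG sites, and held 8 and 5 GC boxes. The Ryk window had 65.2% G and C, 33 CpG sites, 2 GC boxes and 1 TATAAA match. The Ror1 window had 62.4% G and C and 8 CpG sites with 1 GC box. Over 32851 promoter windows of this length the medians were 52.4% G and C and 6 CpG sites. Windows of members that were not called ran from 48.4% G and C with 5 CpG sites (Wnt8b) to 87.6% with 41 (Wnt3a). Such richness was thus not particular to the called genes. No window of the 4 held the TCF/LEF core, which 7.5% of all windows held, or CCAAT, which 33.8% held. GGGCGG was in 32.7% of all windows and TATAAA in 12.4%. Of the 34 members 24 had a window in the table, 27 windows in all, and of these 21 held GGGCGG, 9 CCAAT, 3 TATAAA and 2 the TCF/LEF core. A match describes the letters only, and its absence says nothing about a factor.

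Among the ligands, Wnt4 had the largest called difference. Wnt4 is known for kidney and gonad formation and usually acts without β-catenin. In order of replicate, it read 6.32 and 6.73 in OP9M2, and 8.90 and 9.74 in BFC012. The lines did not overlap, and the gene was 6.94-fold lower in OP9M2 (difference -2.79 ± 0.34, 95% interval -3.69 to -1.90, adjusted p = 0.0240 in limma). Its other probe set read 6.42 and 5.90 in OP9M2 and 7.36 and 8.28 in BFC012. That difference had the same sign and was not called (-1.66, adjusted p = 0.102).

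Wnt9a, a ligand known from joint formation, read 5.79 and 6.59 in OP9M2 and 8.27 and 9.07 in BFC012. OP9M2 lay below BFC012 on every array, by 5.56-fold (-2.48 ± 0.40, 95% interval -3.54 to -1.42, adjusted p = 0.0487 in limma). The adjusted p was close to the threshold, and 1 of the OP9M2 arrays was above background. Its second probe set was below background on all arrays and differed by -0.09.

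Wnt10a, a ligand of skin appendages and teeth that acts through β-catenin, read 5.59 and 5.40 in OP9M2 and 6.56 and 6.82 in BFC012. Only the BFC012 arrays exceeded background, and the gene was at least 1.51-fold lower in OP9M2 (-1.20 ± 0.17, 95% interval -1.65 to -0.75, adjusted p = 0.0352 in limma). Of the 7 ligands usually tied to β-catenin (Wnt1, Wnt3, Wnt3a, Wnt8a, Wnt8b, Wnt10a and Wnt10b), Wnt10a was the only one called. Of these 7, 2 were above background on at least 2 arrays and 4 on none. Of the 4 usually tied to routes without it (Wnt4, Wnt5a, Wnt5b and Wnt11), Wnt4 was the only one called, and 2 were above background on at least 2 arrays. With so few bright ligands and 3.56% of all genes called lower, these counts do not separate the routes.

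Wnt5a, a main ligand of ROR receptors, differed more within OP9M2 than between the lines. It read 7.95 on OP9M2 replicate 1 and 11.08 on replicate 2, with 9.45 and 10.31 in BFC012. The BFC012 arrays thus lay between the OP9M2 arrays, and the difference was -0.37 ± 1.09 (95% interval -3.27 to 2.53, adjusted p = 0.913 in limma). A gap between the OP9M2 arrays at least this wide was found in 33 of 18193 genes (0.181%). The same order held in its next probe sets, which read 6.31 and 9.25 in OP9M2 against 7.89 and 8.38 in BFC012, and 6.34 and 8.85 against 7.17 and 8.11. The last of its 4 probe sets stayed below background on all arrays, between 4.59 and 5.80. Without OP9M2 replicate 1 the difference of Wnt5a was 1.20 and not called (adjusted p = 0.168), and without OP9M2 replicate 2 it was -1.94 with an adjusted p of 0.0497. Both fits leave 1 OP9M2 array and take the spread from BFC012 alone, so the gap between the OP9M2 arrays is no longer counted.

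The OP9M2 arrays also differed in fat cell genes, in the opposite order to Wnt5a, with all 5 measured markers higher on replicate 1. Adipoq, the fat cell hormone adiponectin, read 12.84 on OP9M2 replicate 1 and 5.41 on replicate 2, and 3.99 and 3.39 in BFC012. Cebpa, a factor of fat cell differentiation, read 12.69 and 8.92 in OP9M2 and 6.55 and 6.59 in BFC012. The summed level of the 5 measured adipocyte markers ran from 50.6 to 64.8 in OP9M2 and from 27.1 to 28.5 in BFC012, and its part in the values of Wnt5a was not tested.

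**Figure D2:**
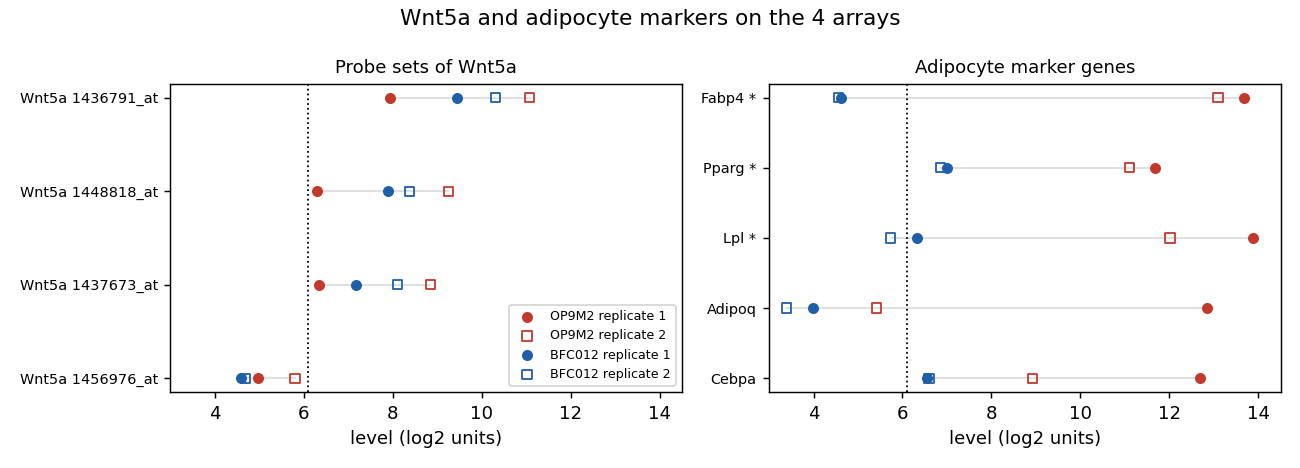
Level in log2 units (horizontal axis) of the 4 probe sets of Wnt5a and of the measured adipocyte marker genes on each of the 4 arrays, 1 symbol per array, with the background level as a dotted line. Wnt5a was lower on OP9M2 replicate 1 (7.95) than on replicate 2 (11.08), whereas Adipoq was higher on replicate 1 (12.84) than on replicate 2 (5.41).

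The other ligands above background on at least 2 arrays were nearly level between the lines. Wnt7a read 7.11 and 7.22 in OP9M2 and 7.20 and 7.13 in BFC012. Wnt7b read 7.96 and 7.74 against 7.88 and 7.77, and Wnt6 read 6.10 and 6.18 against 6.18 and 6.30. Wnt10b, a ligand known to restrain fat cell formation, read 6.53 and 6.98 in OP9M2 and 6.42 and 6.73 in BFC012, a difference of 0.18. The arrays of the lines overlapped for Wnt7a, Wnt7b and Wnt10b and touched for Wnt6, and none was called.

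Among the receptors, Fzd6 had the largest difference of all members. FZD6 is a Frizzled of planar cell polarity, which orients hair follicles. Its level was 4.77 and 4.44 in OP9M2, below background, and 10.71 and 10.81 in BFC012. The lines were far apart, at least 25.4-fold (-6.16 ± 0.17, 95% interval -6.62 to -5.70, adjusted p = 0.00112 in limma). A second probe set, with 5.34 and 5.26 in OP9M2 and 7.08 and 7.39 in BFC012, was called too (-1.94, adjusted p = 0.0104). The third was below background on all arrays and did not separate the lines.

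Fzd3, the closest relative of Fzd6 and a receptor of axon guidance, read 5.45 and 5.72 in OP9M2 and 6.99 and 6.65 in BFC012. It was at least 1.65-fold lower in OP9M2 (-1.24 ± 0.19, 95% interval -1.75 to -0.72, adjusted p = 0.0462 in limma). A second probe set was called as well (-1.88, adjusted p = 0.0114) but was below background on all arrays, with 3.85 and 3.95 in OP9M2 and 5.94 and 5.63 in BFC012. Its other 4 probe sets lay between -0.60 and -0.11 and were not called. The call of Fzd3 was lost when all its probe sets were averaged (-0.76). It was lost with the replicate number as a block (adjusted p = 0.154 in limma) and with crossed replicate numbers (adjusted p = 0.0559 in limma). It was also lost without OP9M2 replicate 1 (-1.10), where the spread came from BFC012 alone. The same held without BFC012 replicate 1 (-1.06) or replicate 2 (-1.41). With all 4 arrays, no block and the brightest probe sets, both members of the Fzd3 and Fzd6 subfamily were called. None of the other 8 Frizzleds was.

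**Figure D3:**
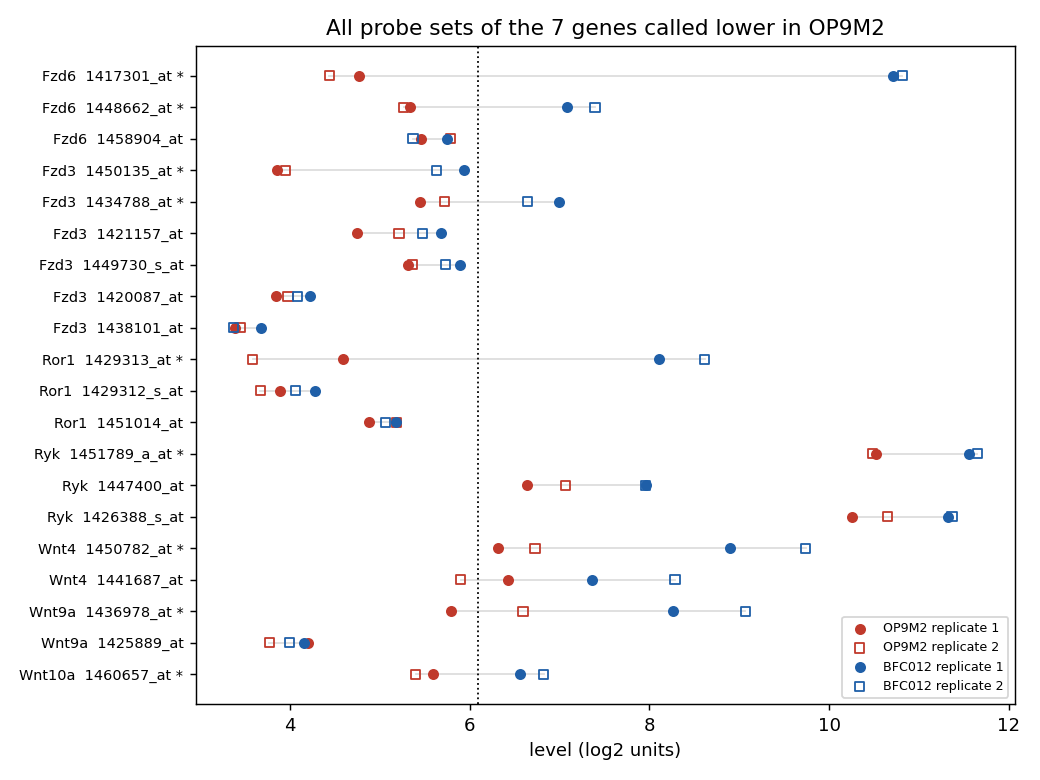
Level in log2 units (horizontal axis) of every probe set of the 7 genes called lower in OP9M2, 20 in all, on each of the 4 arrays, with 1 symbol per array, asterisks on called probe sets and the background level as a dotted line. In 9 probe sets the difference was called, and most of the others lay near or below background.

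Fzd1, Fzd2 and Fzd7 form the subfamily most often read as receptors of the β-catenin route. Fzd1 read 10.80 and 10.15 in OP9M2 and 11.17 and 11.92 in BFC012 (-1.07 ± 0.35, 95% interval -2.004 to -0.13, adjusted p = 0.209 in limma). Fzd2 read 10.55 and 9.92 against 10.53 and 11.07 (-0.57 ± 0.31, 95% interval -1.38 to 0.24). Fzd7, a Frizzled of mesenchymal and embryonic cells, read 9.57 and 8.49 against 9.01 and 9.39 (-0.17 ± 0.40, 95% interval -1.23 to 0.90). All 3 were above background on every array. Of these only Fzd1 had both BFC012 arrays above both OP9M2 arrays, and the intervals of all 3 reach beyond a 2-fold lower level in OP9M2.

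Fzd4, a receptor of vessel growth that also binds norrin, read 7.79 and 6.47 in OP9M2 and 8.48 and 8.55 in BFC012. All arrays of OP9M2 lay below those of BFC012, but the OP9M2 arrays were more than 1 log2 unit apart and the difference was not called (-1.38 ± 0.46, 95% interval -2.60 to -0.17, adjusted p = 0.210 in limma). Fzd10, of the same subfamily, read 6.48 and 6.54 in OP9M2 and 7.04 and 6.63 in BFC012 (-0.32 ± 0.19), and Fzd9 stayed below background.

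Fzd5 and Fzd8 form the remaining subfamily. Fzd5 read 8.77 and 7.70 in OP9M2 and 8.68 and 9.04 in BFC012 (-0.62 ± 0.40, 95% interval -1.68 to 0.44). Fzd8 read 8.50 and 8.38 against 8.51 and 8.79 (-0.21 ± 0.16, 95% interval -0.64 to 0.22). Neither was called, and the interval of Fzd8 lay within a 2-fold difference in either direction. The OP9M2 replicates thus differed by more than 1 log2 unit in Fzd4, Fzd5 and Fzd7, with replicate 1 the higher in each.

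**Figure D4:**
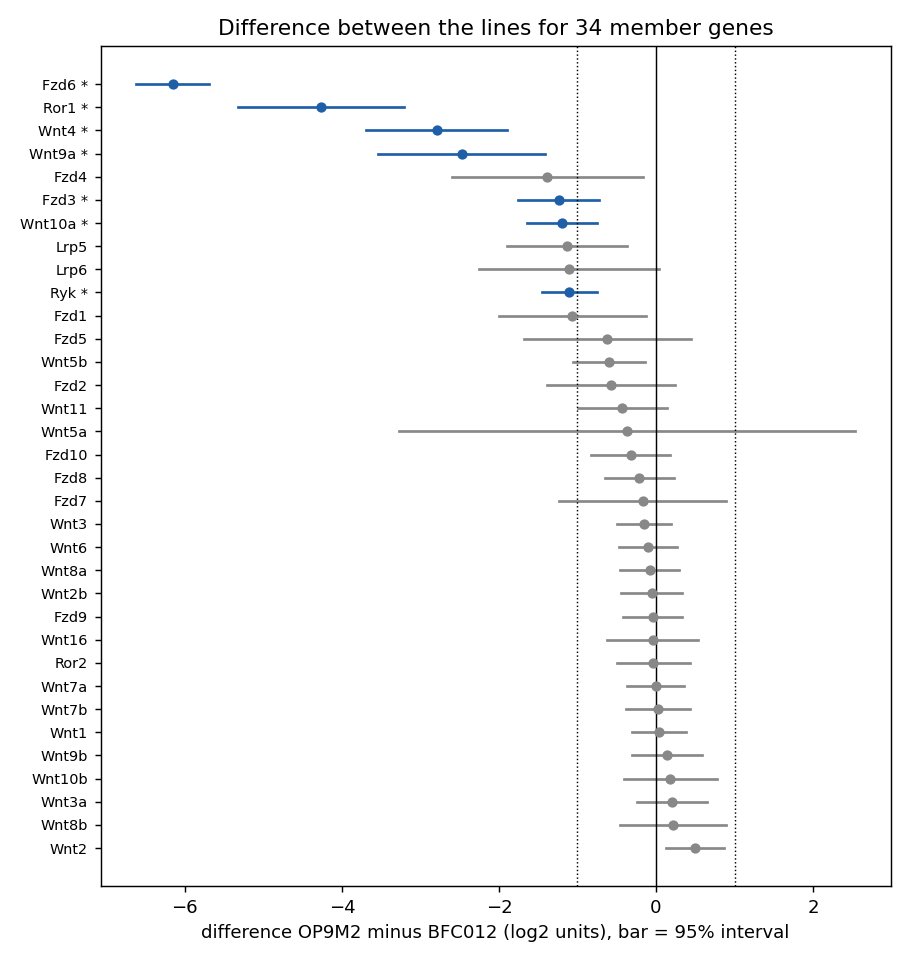
Difference OP9M2 minus BFC012 in log2 units (horizontal axis) for the 34 member genes, with bars for the 95% interval of limma's fit. The 10 Frizzleds and the 5 other receptors all lie below 0, and the interval of Wnt5a, from -3.27 to 2.53, spans both directions.

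The kinase-like receptors showed the remaining calls. ROR1, a receptor-like kinase that binds WNT5A and is known from embryonic tissue, read 4.59 and 3.59 in OP9M2 and 8.11 and 8.62 in BFC012. It was below background in OP9M2 only, and at least 4.82-fold lower there (-4.27 ± 0.40, 95% interval -5.33 to -3.21, adjusted p = 0.0127 in limma). Its other 2 probe sets were below background on all arrays, with -0.39 and -0.09. Ror2, its relative and a receptor of WNT5A in cartilage and limb, was below background in both lines, at 4.46 and 4.76 in OP9M2 and 4.74 and 4.54 in BFC012.

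RYK, a Wnt receptor whose kinase domain is inactive, was well above background in both lines. Ryk read 10.52 and 10.48 in OP9M2 and 11.55 and 11.65 in BFC012, with little spread within each line. It was 2.15-fold lower in OP9M2 (-1.10 ± 0.13, 95% interval -1.45 to -0.75, adjusted p = 0.0240 in limma). Its other 2 probe sets had differences of -0.89 (adjusted p = 0.0840) and -1.10 (adjusted p = 0.0573), which had the same sign and were not called.

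Lrp5 and Lrp6, the co-receptors of the β-catenin route, had differences of about the size of that of Ryk but wider spread. Lrp5 read 6.65 and 6.01 in OP9M2 and 7.69 and 7.25 in BFC012 (-1.14 ± 0.29, 95% interval -1.90 to -0.37, adjusted p = 0.127 in limma). Lrp6 read 10.44 and 9.21 in OP9M2 and 10.87 and 10.997 in BFC012 (-1.11 ± 0.43, 95% interval -2.25 to 0.03, adjusted p = 0.272 in limma). Neither overlapped between the lines and neither was called. Without OP9M2 replicate 1 the differences were -1.45 for Lrp5 (adjusted p = 0.0399) and -1.72 for Lrp6 (adjusted p = 0.0111), and -2.04 for Fzd4 (adjusted p = 0.00682). These p-values rest on the spread of the BFC012 pair alone and leave out the gaps between the OP9M2 arrays (0.638, 1.23 and 1.32 log2 units).

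Markers of mesothelium, the sheet of cells that covers inner organs, moved in the same direction as the called members. The 7 listed genes had summed levels of 41.4 and 42.6 in OP9M2 and 70.3 and 72.7 in BFC012, with Upk3b, Upk1b, Lrrn4, Wt1 and Bnc1 called lower in OP9M2. Msln and Krt19 were not called, and their OP9M2 arrays were far apart, in opposite order. Msln read 6.56 and 10.00 in OP9M2 against 10.19 and 10.48 in BFC012. Krt19 read 9.01 and 7.29 against 9.035 and 10.07. Such gaps offset each other in the sum. The 6 epithelial markers summed to between 33.6 and 34.5 in OP9M2 and between 39.5 and 41.2 in BFC012. The part of these cell programmes in the levels of Fzd6, Fzd3, Ror1, Ryk, Wnt4, Wnt9a and Wnt10a was not tested. Epcam, a defining epithelial gene, was above background in both lines, with 10.32 and 9.20 in OP9M2 and 8.73 and 8.90 in BFC012. It was the only epithelial marker above background in OP9M2. Krt18 (4.61 to 4.91) and Cldn4 (5.01 to 5.21) were below background on all arrays. Cdh1, Krt8 and Krt14 were below it on both OP9M2 arrays and above it on both BFC012 arrays. Ptprc, the pan-blood-cell gene, was below background on all arrays (4.36 to 4.41).

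Around the members, 88 of 91 listed genes of the Wnt pathway were measured. Of these 3 were called higher in OP9M2, 6 lower and 79 neither (8 and 19 at an unadjusted p under 0.05), with a median difference of 0.0082. Over all genes 2.36% were called higher and 3.56% lower (10.5% and 12.8% at an unadjusted p under 0.05). Secretion and release of Wnt had no called gene among 7, though 1 probe set of Trabd2b, a protease that trims Wnt proteins, was called higher (1.54, adjusted p = 0.00962) beside a representing one at 2.03 (adjusted p = 0.0516). In all, 5 listed genes had such a call in a probe set that does not represent them: Trabd2b, Daam1, Lgr6, Rspo2 and Apcdd1. Porcn, the enzyme that adds the lipid to Wnt proteins, read 7.55 and 5.97 in OP9M2 and 7.13 and 7.55 in BFC012 (-0.58 ± 0.56), and Wls, the carrier that brings Wnts to the cell surface, read 11.14 and 10.74 against 11.39 and 12.01 (-0.76 ± 0.28). Neither was called.

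Of 21 genes of the planar polarity and Ror route, which share the route with FZD3, FZD6, ROR1 and RYK, 2 were called lower in OP9M2 and 2 higher. Daam2, a formin that links Dishevelled to the cytoskeleton, read 5.87 and 6.03 in OP9M2 and 11.09 and 10.93 in BFC012, at least 30.2-fold lower (-5.06 ± 0.15, adjusted p = 0.00113 in limma). Ptk7, another Wnt-binding pseudokinase of polarity, read 8.17 and 8.29 against 10.63 and 10.65, 5.30-fold lower (-2.41 ± 0.13, adjusted p = 0.00376 in limma). For the formin Daam1 a probe set that does not represent it was called higher (1.28, adjusted p = 0.0154), beside a difference of 0.18 in the representing one. Higher in OP9M2 were Prickle2, a core polarity protein, with 9.66 and 9.46 against 7.58 and 7.85 (1.84 ± 0.17), and Invs, the ciliary protein inversin, with 8.35 and 7.98 against 6.86 and 7.03 (1.22 ± 0.19). The route thus held calls in both directions. With the replicate number as a block the calls of Prickle2 (adjusted p = 0.0737) and Invs (adjusted p = 0.144) were lost, and Invs was also lost with an intensity trend in the variance prior (adjusted p = 0.0548).

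Of 12 secreted antagonists, Sfrp2, a Frizzled-like decoy for Wnts, was called lower in OP9M2 (at least 92.5-fold) and Dkk3, of the Dickkopf family, higher (at least 44.0-fold). Of 7 genes of R-spondins and their receptors Rspo3, which raises Frizzled at the cell surface, was called lower (-3.65 ± 0.25, adjusted p = 0.00599 in limma). With the replicate number as a block Rspo3 was no longer called (adjusted p = 0.0503). The other probe set of Rspo2 was called higher (5.12, adjusted p = 0.0351), while the one that stands for the gene differed by 0.20, and for the R-spondin receptor Lgr6 these values were 1.38 (adjusted p = 0.0437) and 0.42. Of 7 genes of receptor handling, Adgra2, an adhesion receptor that takes part in WNT7 signalling through Frizzled, was called lower. It read 5.26 and 5.23 in OP9M2 and 8.96 and 8.90 in BFC012, at least 7.13-fold lower (-3.68 ± 0.13, adjusted p = 0.00157 in limma).

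Of 23 genes of the β-catenin route, Tle3, a co-repressor of TCF/LEF factors, was called lower in OP9M2, by 2.34-fold (9.31 and 9.37 against 10.45 and 10.69), but not with the replicate number as a block (adjusted p = 0.0926). Apc, at -0.89 (adjusted p = 0.0416 in limma), fell short of the 1 log2 unit of a call. None of its 4 probe sets was called (-1.02 to 0.35). Were the deposited values linear, the difference of Apc would exceed 1 log2 unit. Then 7 instead of 6 other pathway genes would be called lower. Ctnnb1, β-catenin itself, read 13.29 and 13.37 in OP9M2 and 13.38 and 13.46 in BFC012 (-0.10 ± 0.13). Lef1 was below background on all arrays (5.57 to 5.67), and no probe set named Tcf7 alone. Of 18 frequent target genes none was called by the probe set that stands for it. At an unadjusted p under 0.05 in limma, 1 was higher and 4 lower, against 10.5% and 12.8% of all genes. Axin2, the target most often used as a readout of β-catenin, read 6.85 and 7.07 in OP9M2 and 7.47 and 8.67 in BFC012 (-1.11 ± 0.43, 95% interval -2.24 to 0.028, adjusted p = 0.269 in limma). For the target Apcdd1 the representing probe set was not called (-1.17), while 4 of its 6 probe sets were called lower, between -7.21 and -4.69.

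**Figure D5:**
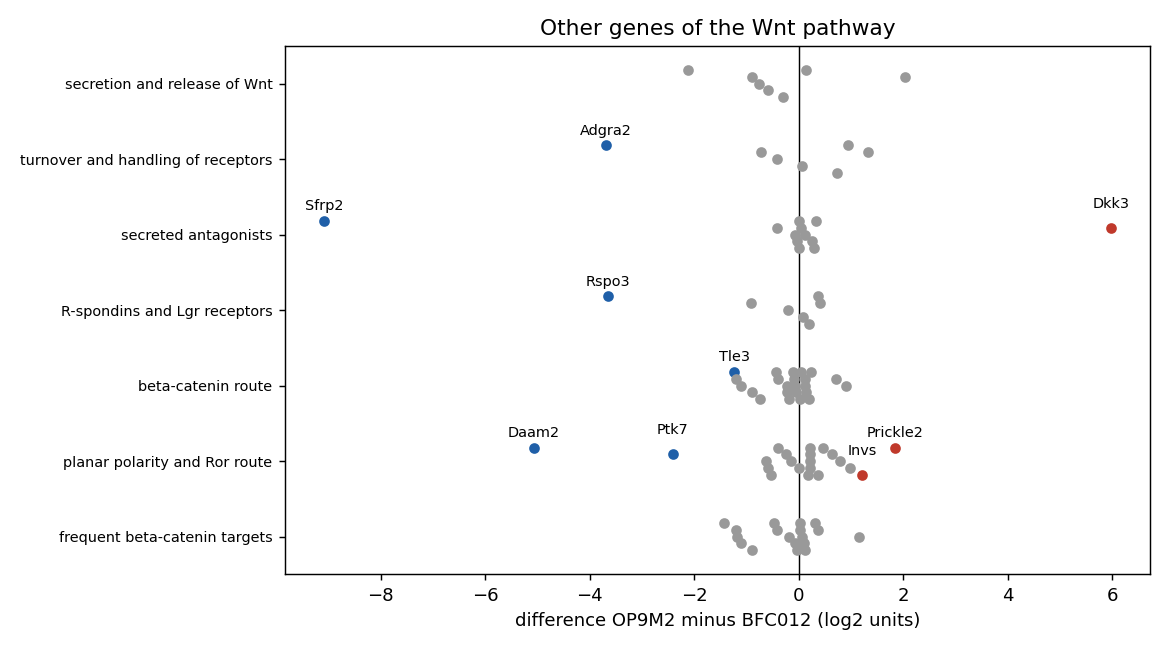
Difference OP9M2 minus BFC012 in log2 units (horizontal axis) for each measured gene of the other Wnt pathway lists, 1 row per list and 1 point per gene, with called genes marked and named. Of 88 genes 3 were called higher, among them Dkk3 at 5.98, and 6 lower, among them Sfrp2 at -9.08.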

How the data were processed

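The authors deposited 1 intensity per probe set and array, for which they named RMA and affy. A Bioconductor release is stated in the study, and versions of RMA and affy themselves are not stated. The natural log of the values (2.06 to 14.9) was read as the RMA log2 level, since 6.31% to 6.57% of the deposited intensities exceeded 65535, the scanner's maximum. Of 45101 probe sets 64 controls were left out. Of the others 34945 named 1 gene, 932 several and 9160 none in the platform annotation, and 34741 gene identifiers were found in the RefSeq table. Each gene was represented by whichever of its probe sets was brightest on average.

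OP9M2 was compared with BFC012 in R 4.3.3 with the lmFit and eBayes functions of limma 3.58.1 (2 arrays a line, no covariate, Benjamini-Hochberg over 45037 probe sets), at the 5% false discovery rate and 2-fold change named in the methods of the study. There were 2 residual and 2.50 prior degrees of freedom, so the number of arrays limits the precision. The procedure was run on simulated data in which a probe set had the same spread in both lines. The OP9M2 arrays were in fact less alike than the BFC012 arrays, so that run does not measure the power or error rate here. Members and lists were chosen with earlier results of these data known. Every member was named, and of the other lists the called genes with Axin2, Ctnnb1, Lef1, Tcf7, Porcn and Wls. Rspo2, Apc, Apcdd1, Trabd2b, Lgr6, Daam1 and the markers given were named after their values were seen. Alternatives were log2 of the deposited values, quantile normalization, a background filter, the mean of a gene's probe sets, a variance trend, each array left out in turn and the replicate number as a block. A crossed block and a background at the 99th percentile were chosen after seeing the data.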

Additional observations from a re-analysis of the deposited data

How the results depend on the processing

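Under log2 of the deposited values, which makes differences 1.44 times as large, quantile normalization, the background filter and the variance trend the same 7 member genes were called lower, and with the mean of all probe sets 6 (Fzd3 lost). No member gene was called higher under any of the 11 alternatives. The fits without a BFC012 array made no call in either direction, so they could not show one. The 7 called genes stayed below 0 in all alternatives. They were chosen on the same arrays, so their common sign is no separate support. Log2 of the deposited values, the background filter, the variance trend and the blocks also cannot change a sign. With the replicate number as a block, 3 member genes and 3 member probe sets were called lower. The deviations of same-numbered arrays were only weakly related (correlation -0.103), and with crossed numbers 2 genes and 5 probe sets were called. The numbers give no source of pairing beyond the label. Among other pathway genes the block lost the calls of Prickle2, Invs, Rspo3 and Tle3.

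Leaving out 1 array at a time, which leaves 1 line to give the spread, gave 0 to 9 member genes lower, 0 to 13 member probe sets lower and 0 to 1 higher (a dim probe set of Wnt5a, without OP9M2 replicate 1), 0 to 7 other pathway genes higher and 0 to 11 lower. The counts of 0 came from leaving out either BFC012 array, where the smallest adjusted p over all probe sets was 0.0826 and 0.0903, and 4568 and 4517 had an unadjusted p under 0.05. Without OP9M2 replicate 1 the 9 genes were Fzd4, Fzd6, Lrp5, Lrp6, Ror1, Ryk, Wnt4, Wnt9a and Wnt10a. Without OP9M2 replicate 2, the array low in poly-A controls, they were the 7 and Wnt5a. The difference of Wnt5a ran from -1.94 to 1.20 and was 0.059 without BFC012 replicate 2. The cause was not tested. With the background at the 99th percentile, 6.84, 16 instead of 21 members were above it on at least 2 arrays.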

Other observations

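Several Wnt genes are neighbours in the order of protein-coding genes, among them the pairs Wnt6 and Wnt10a, Wnt3a and Wnt9a, Wnt3 and Wnt9b, and Wnt1 and Wnt10b. In the pairs with a called gene, the neighbour was not called: Wnt6 read 6.10 to 6.30 beside Wnt10a, and Wnt3a read 5.75 to 6.16 beside Wnt9a. In the other 2 pairs neither gene was called.

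Across all genes the median gap between replicates was 0.240 log2 units in OP9M2 and 0.152 in BFC012. Among the members it was 0.284 and 0.216.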
